A study of Canis lupus familiaris with 25 samples.

Results

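MKI67 (ENSCAFG00000013255) and PCNA (ENSCAFG00000006030) are both widely read as markers of dividing cells, and they are described here in canine prostate. They were taken by the Ensembl IDs that the study gives for them. These are 2 of the 32220 IDs with a read count in each of 25 samples. RNA sequencing was performed on prostate tissue removed after death and on aspirates drawn through a needle guided by ultrasound (US-FNA). The labels describe the aspirates as taken in life, but the study repeated the procedure on a dog with carcinoma just after it was put down, and by its sample list the extra aspirate appears to be US-3 or another from the same dog. The non-malignant samples were normal to hyperplastic and came only from intact male dogs, with 9 tissues (PT-10 to PT-18, dogs of 1 to 16 years) and 5 US-FNA samples (US-40, US-32, US-15, US-13 and US-7, dogs of 4 to 10 years). The malignant samples were prostate carcinomas. They comprised 9 tissues (PT-1 to PT-9, dogs of 8 to 12 years, 6 neutered and 3 intact) and 2 US-FNA samples (US-4 and US-3, neutered dogs of 9 and 10 years). Tissues were diagnosed by histopathology and aspirates by cytology, and the dogs were of many breeds. Each sample was treated as an independent replicate, although the study also obtained tissue from the dog of US-3 and the labels do not say whether this tissue is among PT-1 to PT-9.

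Ki-67, the protein of MKI67, coats the chromosomes during mitosis and keeps them apart from each other. It is present in cycling cells and is lost from resting cells, which is why pathologists count Ki-67-positive nuclei to grade the growth of a tumour. PCNA forms a ring around DNA that holds the DNA polymerases on their template during replication, and it also serves in DNA repair, so that cells outside the S phase and resting cells can contain it. Both genes are among the transcripts that rise as cells enter the cycle. The secretory epithelium of the adult prostate divides slowly and produces large amounts of secreted proteins, of which kallikrein 2 (KLK2) is the dominant one in the dog.

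Levels are given as CPM, that is, reads of a gene per 1000000 reads on all genes except KLK2. KLK2 was left out of the total because it took 15.7% to 48.2% of all gene counts in the non-malignant samples and at most 0.0657% in the malignant samples. Between 3355926 and 6594032 reads fell on genes per sample. Other secretory genes also differed between the diagnoses. KLK4, a further kallikrein, lay at 220 to 592 CPM in the 14 non-malignant samples and at 0.169 to 6.02 CPM in the 11 malignant samples. ACPP, the prostatic acid phosphatase, lay at 81.2 to 501 CPM and at 0.899 to 23.7 CPM. These transcripts of secretory prostate epithelium were thus low in the samples labelled as carcinoma. In bulk samples such as these, fewer cells of a type and less RNA per cell cannot be told apart, and the same holds for more dividing cells and more MKI67 or PCNA RNA per dividing cell.

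Both genes separated the diagnoses without overlap. The highest MKI67 level in any of the 14 non-malignant samples was 5.26 CPM (US-7), and the lowest in any of the 11 malignant samples was 17.1 CPM (PT-3), 3.26 times as high. For PCNA the highest non-malignant level was 35.8 CPM (US-7 again) and the lowest malignant level 51.1 CPM (PT-5), 1.43 times as high. Of 15296 genes that passed the filter on low counts, 420 (2.75%) had every malignant sample above every non-malignant sample. Both genes also separated the diagnoses under other scalings of the libraries, which were added after the values had been seen. After TMM normalisation the gaps were 3.48-fold for MKI67 and 1.41-fold for PCNA, and over the whole library total 5.35-fold and 1.98-fold.

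**Figure D1:**
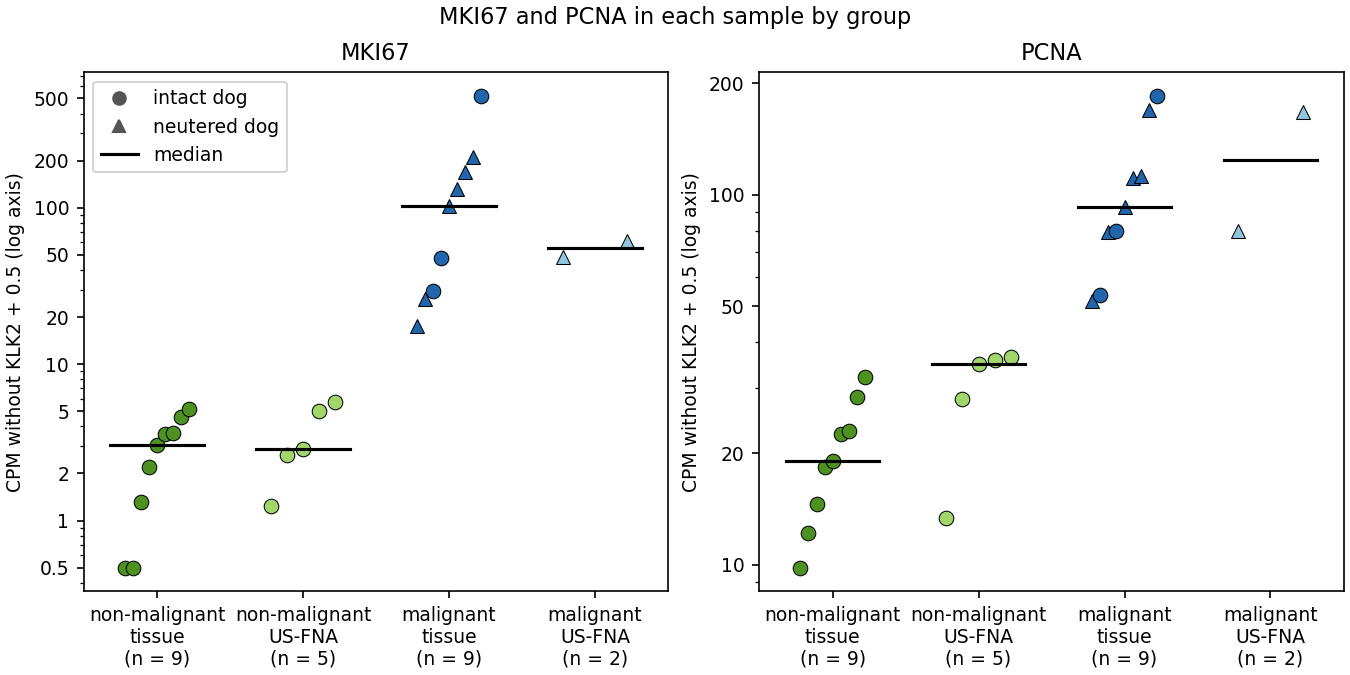
MKI67 (left) and PCNA (right) in each of the 25 samples, in CPM without KLK2 plus 0.5 on a log axis, by group; circles are intact dogs, triangles neutered dogs and horizontal lines group medians. Every malignant sample lies above every non-malignant sample for both genes, with MKI67 at 5.26 CPM or less in non-malignant samples and at 17.1 CPM or more in malignant samples, and the malignant tissues spread more widely for MKI67 than for PCNA.

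MKI67 was close to the limit of detection in non-malignant tissue. Its read counts there ranged from 0 to 16 per library, and its level was 2.23 ± 1.71 CPM (SD, n = 9), with a median of 2.54 CPM and a highest value of 4.68 CPM in PT-12. PT-10 and PT-11 had no MKI67 read, which allows levels of up to 0.786 and 0.849 CPM (3 counts of their totals). The Wilson 95% interval of the highest tissue, PT-12 (16 reads), ran from 2.88 to 7.61 CPM, so that most of these tissues could not be ranked by single libraries. Such intervals and limits cover counting error only.

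In malignant tissue MKI67 ranged from 17.1 CPM (PT-3, 91 reads) over a median of 102 CPM (PT-5) to 519 CPM (PT-1, 2888 reads), with a mean of 139 ± 158 CPM (SD, n = 9). All 9 tumours lay above all 9 non-malignant tissues, as did 6.47% of the genes tested. The median tumour was 40.3 times as high as the median non-malignant tissue. In edgeR's quasi-likelihood test MKI67 rose with a log2 fold change of 5.76 (SE 0.73, FDR 3.85e-06), a 54.2-fold increase with a 95% confidence interval of 18.8 to 156. At an FDR under 0.05, 32.8% of the 15293 genes tested were higher in malignant tissue, and at the study's limit of 0.00001 the share was 3.35%, MKI67 included. MKI67 lay close to this stricter limit, since 7 of the 18 fits with 1 sample left out (without PT-2 or without any of PT-13 to PT-18) gave FDRs above it, up to 1.55e-05. Only 376 genes (2.46%) had a larger log2 fold change than MKI67.

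PCNA, by contrast, was measured well above the limit of detection in each sample, with at least 33 reads per library. In non-malignant tissue it ranged from 9.34 CPM (PT-11) over a median of 18.6 CPM (PT-10) to 31.6 CPM (PT-13), with a mean of 19.5 ± 7.32 CPM (SD, n = 9). In malignant tissue the range was 51.1 CPM (PT-5) to 184 CPM (PT-1), with a median of 92.3 CPM (PT-9) and a mean of 103 ± 46.9 CPM (SD, n = 9). The median tumour was 4.96 times as high as the median non-malignant tissue, and the groups did not overlap. PCNA rose with a log2 fold change of 2.30 (SE 0.25, FDR 6.13e-07), which is 4.92-fold with a 95% confidence interval of 3.44 to 7.04. It also passed the study's limit of 0.00001, with each sample left out in turn as well. Its fold change was thus smaller than that of MKI67, with 2079 genes (13.6%) above it, whereas only 288 genes had a smaller p-value than PCNA against 650 for MKI67.

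In exact permutation tests of the mean log2(CPM + 0.5), both differences between malignant and non-malignant tissue, 5.31 for MKI67 and 2.34 for PCNA, reached p = 4.11e-05, the smallest value that 9 against 9 samples can give. All dogs with non-malignant samples were intact, and most dogs with carcinoma were neutered. With only the 3 intact dogs with malignant tissue against the 9 non-malignant tissues, MKI67 was still higher by 6.20 on the log2 scale (edgeR, FDR 0.000138) and PCNA by 2.31 (FDR 0.000217). The median log2 fold change of all genes in malignant against non-malignant tissue was 0.172 with TMM and 0.255 with the library total without KLK2, so that both genes rose far beyond the shift of the typical gene under either scaling. The estimates within intact dogs rest on 3 tumours, whose MKI67 levels were 519 CPM in PT-1, 47.5 CPM in PT-4 and 28.9 CPM in PT-8. Whether the size of the increase depends on reproductive status was not tested by this comparison. The share of all genes called with only these intact dogs was not computed.

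The increase was also present in the aspirates, as far as 2 malignant US-FNA samples can show. MKI67 reached 47.6 CPM in US-4 (193 reads) and 61.3 CPM in US-3 (243 reads). In the non-malignant US-FNA samples it stood at 0.737 CPM in US-32, 2.12 in US-13, 2.39 in US-40, 4.54 in US-15 and 5.26 in US-7, on 2 to 16 reads per library. The lower malignant aspirate was 9.06 times as high as the highest non-malignant aspirate. Both groups were thus fully separated, as they were for 15.8% of the genes tested. MKI67 rose by 4.40 on the log2 scale within US-FNA samples (SE 0.53, edgeR FDR 0.000943), where 16.5% of the genes tested were higher at an FDR under 0.05.

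PCNA stood at 79.2 CPM in US-4 and 167 CPM in US-3. In the non-malignant US-FNA samples it stood at 12.9 CPM in US-32, 27.5 in US-13, 34.4 in US-40, 35.2 in US-15 and 35.8 in US-7. The lower malignant aspirate was 2.21 times as high as the highest non-malignant one. PCNA rose by 2.34 on the log2 scale (SE 0.40, edgeR FDR 0.00389). This estimate moved with the sample used, since it was 1.63 (FDR 0.0201) without US-3 and 2.75 (FDR 0.00112) without US-4. The exact permutation test gave p = 0.0476 for each gene, the smallest value possible with 2 against 5 samples.

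Against the non-malignant tissues, the control of the study, MKI67 was higher in malignant US-FNA samples by 4.74 on the log2 scale (SE 0.72, edgeR FDR 0.000194) and PCNA by 2.83 (SE 0.33, FDR 2.94e-05). At an FDR under 0.05, 23.8% of the genes tested were higher in this comparison, and 15% had both aspirates above all 9 tissues, as MKI67 and PCNA had. At the limit of 0.00001, which 1.09% of the genes passed upwards in edgeR, neither gene was called by that fit. DESeq2, the tool of the study, placed both below it (FDR 3.66e-07 for MKI67 and 2.45e-10 for PCNA). For PCNA so did edgeR without the filter on low counts (FDR 4.08e-06) and in 1 fit of all groups (FDR 1.15e-06). The share of all genes that passed this limit was not computed for DESeq2 or for these alternative fits. The value of PCNA was 2.10 (FDR 0.0024) without US-3 and 3.30 (FDR 1.26e-05) without US-4. This comparison and that of malignant tissue share the same 9 control tissues.

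Haemoglobin transcripts, the mark of blood in a sample, were more abundant in the aspirates. Genes for globin chains took 2.98% (US-4) and 3.98% (US-3) of gene counts in the malignant US-FNA samples, 0.0245% to 1.99% in the non-malignant US-FNA samples and at most 0.0142% in the tissues. In falling order of globin share, the non-malignant aspirates were US-13 (1.99%), US-7 (0.701%), US-15 (0.460%), US-32 (0.351%) and US-40 (0.0245%). In this order PCNA was 27.5, 35.8, 35.2, 12.9 and 34.4 CPM, and MKI67 was 2.12, 5.26, 4.54, 0.737 and 2.39 CPM. Of the malignant aspirates, US-3 had the higher globin share and the higher level of PCNA (167 against 79.2 CPM) and of MKI67 (61.3 against 47.6 CPM). By the study's scores of visible blood, contamination was strong in US-40, US-15 and US-3, moderate in US-7 and US-32, and weak in US-13 and US-4. These scores did not follow the order of the globin shares. The part of blood cells in the MKI67 and PCNA levels of the aspirates was not tested.

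Sampling by needle instead of tissue removal did not give a detectable difference at the same diagnosis, but the intervals were wide. By the study's methods, RNA was also extracted differently from aspirates and from tissues, so that sampling and extraction cannot be told apart. Between non-malignant US-FNA and non-malignant tissue, the log2 fold change of MKI67 was 0.35 (95% confidence interval −1.16 to 1.86, edgeR FDR 0.769). For PCNA it was 0.50 (−0.04 to 1.05, FDR 0.183), and 3 of the 5 aspirates lay above the highest tissue, compared with 1 of 5 for MKI67. In this comparison 7.34% of the genes tested were higher and 10.6% lower at an FDR under 0.05. The exact permutation p was 0.400 for MKI67 and 0.104 for PCNA.

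Within the carcinomas, both malignant US-FNA samples lay inside the range of the 9 tumour tissues for both genes. For MKI67 the log2 fold change of US-FNA against tissue was −0.97 (95% confidence interval −3.20 to 1.26, edgeR FDR 0.699), and for PCNA it was 0.56 (−0.37 to 1.49, FDR 0.570). As folds, the interval of MKI67 ran from 0.109 to 2.40 times the level in tissue. The sign of the PCNA value rested on US-3, without which it was −0.18. The study's sample list gives no RNA integrity number for US-3, whose RNA was accepted by its electropherogram. At an FDR under 0.05, 2.67% of the genes tested differed between malignant US-FNA and malignant tissue in either direction.

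Whether the increase in carcinoma differed between the sampling techniques was tested directly as an interaction over all 25 samples. The malignant to non-malignant difference of MKI67 was smaller by 1.35 in US-FNA than in tissue on the log2 scale (95% confidence interval of the interaction −3.84 to 1.15, edgeR FDR 0.649), and that of PCNA differed by 0.049 (−0.97 to 1.07, FDR 0.989). Neither passed the test, which 1.32% of the genes did in either direction. The order of the group medians was malignant tissue, malignant US-FNA, non-malignant tissue and non-malignant US-FNA for MKI67 (102, 54.4, 2.54 and 2.39 CPM). For PCNA it was malignant US-FNA, malignant tissue, non-malignant US-FNA and non-malignant tissue (123, 92.3, 34.4 and 18.6 CPM). In both orders no difference was detected by edgeR between the neighbours of the same diagnosis.

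**Figure D2:**
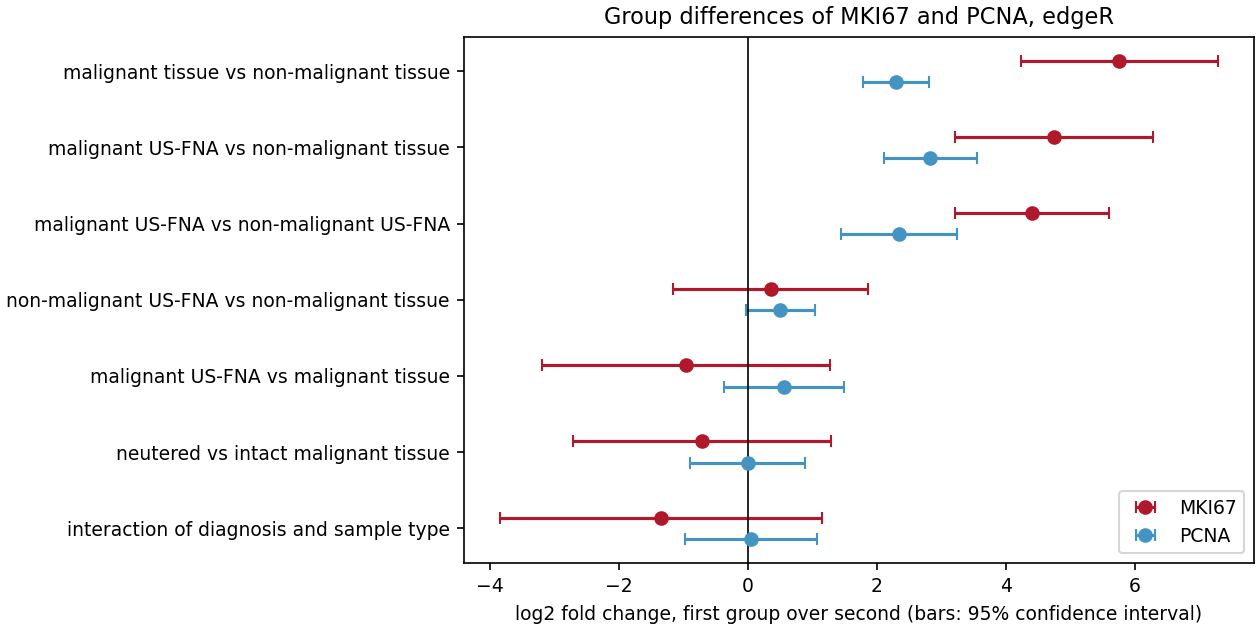
Log2 fold changes of MKI67 (red) and PCNA (blue) from edgeR for 6 group comparisons and for the interaction, with 95% confidence intervals; the vertical line marks no difference. The 3 comparisons of malignant with non-malignant samples lie to the right of the line for both genes, from 2.30 to 5.76, while the intervals of the other 4 cross it.

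The tumours differed widely among themselves in MKI67. From the highest to the lowest, the 9 malignant tissues had 519 (PT-1), 210 (PT-2), 169 (PT-6), 132 (PT-7), 102 (PT-5), 47.5 (PT-4), 28.9 (PT-8), 25.6 (PT-9) and 17.1 CPM (PT-3), a 30.3-fold range. The gap between PT-5 and PT-4 was bridged by the aspirates US-3 and US-4. At this depth most neighbours were resolved. The 95% Wilson intervals of PT-8 (24.7 to 33.8 CPM) and PT-9 (21.3 to 30.8 CPM) overlapped. So did those of US-3 (54.0 to 69.5 CPM) and US-4 (41.4 to 54.8 CPM), and those of US-4 and PT-4. In contrast, PT-1 (501 to 539 CPM) stood clear of PT-2 (197 to 223 CPM). Without PT-1, left out after its value had been seen, the mean fell from 139 to 91.5 ± 73.2 CPM (SD, n = 8), by more than a factor of 1.5.

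PCNA varied less, with a 3.60-fold range over the same 9 tumours. The levels were 184 (PT-1), 169 (PT-2), 112 (PT-6), 111 (PT-7), 92.3 (PT-9), 79.2 (PT-4), 78.8 (PT-3), 53.0 (PT-8) and 51.1 CPM (PT-5). Both genes had the same 4 tumours on top, PT-1, PT-2, PT-6 and PT-7, and they parted below them. The PCNA levels of PT-1 (95% Wilson interval 173 to 196 CPM) and PT-2 (158 to 181 CPM) were not resolved from each other, nor were those of PT-6 and PT-7. PT-5 came next for MKI67 but last for PCNA, while PT-9, with the lowest MKI67 level but one, had the median PCNA level. For PCNA, however, the Wilson intervals of PT-5 (45.2 to 57.8 CPM) and PT-8 (47.2 to 59.4 CPM) overlapped. That of PT-9 (83.8 to 102 CPM) overlapped those of PT-4 and PT-3. After TMM normalisation PT-8 had the lowest PCNA level (37.9 CPM, against 40.7 CPM in PT-5), and PT-4 passed PT-9.

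**Figure D3:**
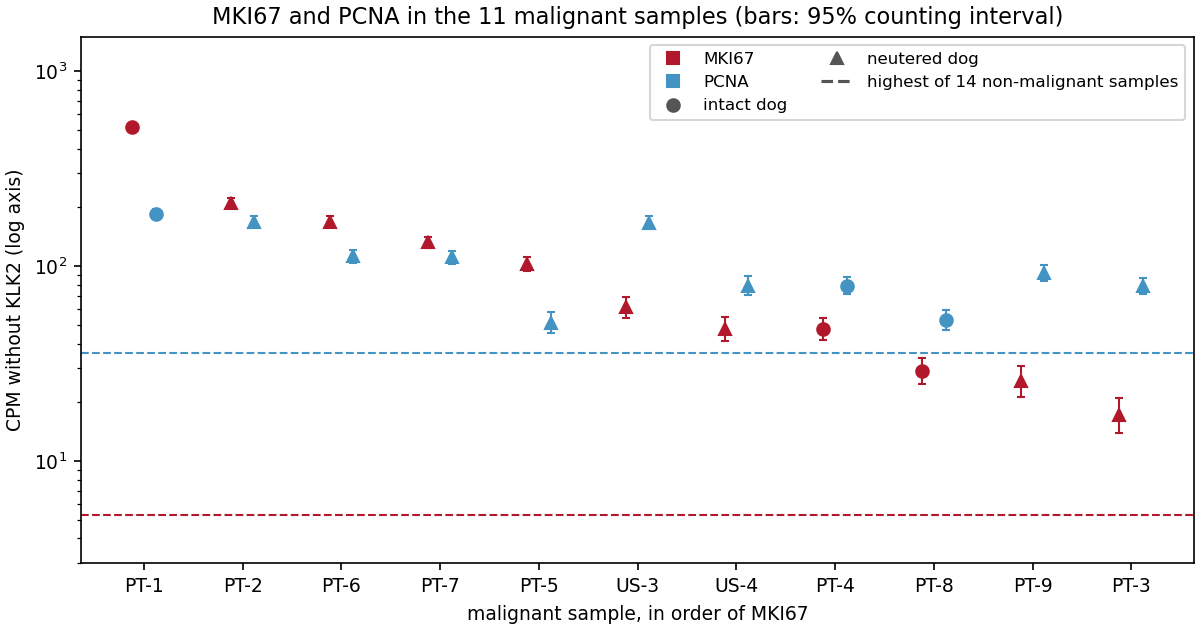
MKI67 (red) and PCNA (blue) in the 11 malignant samples in falling order of MKI67, in CPM without KLK2 on a log axis, with 95% Wilson intervals of the counts; circles are intact and triangles neutered dogs, and dashed lines show the highest of the 14 non-malignant samples for each gene (5.26 and 35.8 CPM). MKI67 falls from 519 CPM in PT-1 to 17.1 CPM in PT-3, while PCNA stays between 51.1 and 184 CPM.

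The spread between tumours was much larger than counting error for both genes. The SD of the CPM values was 29.8 times the SD expected from counting alone for MKI67 and 10.4 times for PCNA. This factor grows with the number of reads and is therefore not compared between groups. The biological coefficient of variation estimated by edgeR for the malignant tissues was 94.8% for MKI67 and 37.2% for PCNA, with a median of 48.9% over 14785 genes. MKI67 thus varied more than 81.4% of the genes and PCNA more than 33.9%. The same order held in non-malignant tissue, where MKI67 had a coefficient of 105% on its few reads and PCNA 29.6% (median of all genes 36.2%).

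No gene lengths were used, and so the level of MKI67 was not compared with that of PCNA within a sample. The log2 ratio of MKI67 to PCNA, each with 0.5 CPM added, can be compared between samples and hardly depends on the library total. In non-malignant tissue it was −3.19 ± 1.28 (SD, n = 9) and ranged from −5.26 (PT-10) to −1.78 (PT-17). In malignant tissue it was −0.22 ± 1.26 (SD, n = 9) and ranged from −2.17 (PT-3) over a median of 0.25 (PT-7) to 1.49 (PT-1). The difference of 2.97 was larger than the SD of either group, though the ranges overlapped. The means differed in the exact permutation test (p = 0.000247, adjusted over 4 comparisons p = 0.000987).

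The ratio did not separate the diagnoses completely, in contrast to either gene alone. It lay above the highest non-malignant tissue in 7 of 9 tumours, and the remaining tumours were PT-3 at −2.17 and PT-9 at −1.83. Among the non-malignant tissues, the lowest ratios belonged to PT-10, PT-13 and PT-11, which had 0 to 3 MKI67 reads, and their values depend on the 0.5 CPM added. With 0.1 or 1 CPM added instead, the difference between malignant and non-malignant tissue was 3.62 or 2.61. MKI67 thus rose more than PCNA under each of these settings.

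No difference in the ratio was detected in the other comparisons. In non-malignant US-FNA the log2 ratio was −3.19 ± 0.42 (SD, n = 5), which differed from non-malignant tissue by −0.0015 (exact permutation p = 0.999). The malignant US-FNA samples had −0.73 (US-4) and −1.44 (US-3), both within the range of malignant tissue (difference −0.87, exact permutation p = 0.418, adjusted 0.836). Both also lay above the highest non-malignant tissue and aspirate.

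**Figure D4:**
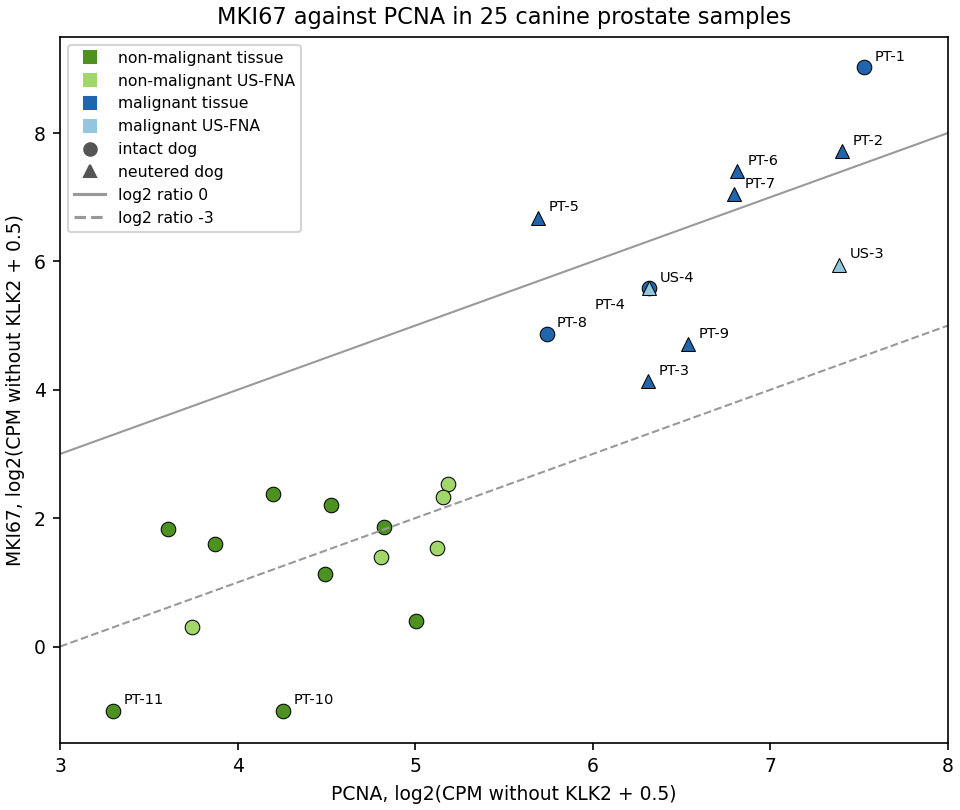
MKI67 against PCNA in the 25 samples, both as log2(CPM without KLK2 + 0.5), coloured by group, with circles for intact and triangles for neutered dogs; the solid line marks a log2 ratio of 0 and the dashed line one of −3. The non-malignant samples lie around the dashed line, PT-10 and PT-11 without an MKI67 read at the bottom, and 5 of the 9 malignant tissues (PT-1, PT-2, PT-5, PT-6 and PT-7) lie above the solid line. The lines are guides for comparing samples, and without gene lengths they do not rank MKI67 against PCNA within a sample.

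Within the 9 malignant tissues, MKI67 and PCNA tended to be high in the same tumours, but the relation did not hold after adjustment. Pearson's r of log2(CPM + 0.5) was 0.702 (exact permutation p = 0.0376) and Spearman's rho 0.75 (exact permutation p = 0.0255). Adjusted over the 18 relations computed, the p-values were 0.338 and 0.229. Without PT-3 and PT-1, the tumours farthest from the median MKI67 level, r was 0.596 (exact permutation p = 0.161). Leaving out 1 tumour gave values between 0.548 (without PT-1) and 0.865 (without PT-5), the tumour with the lowest PCNA level. With TMM-scaled CPM r was 0.604 (exact permutation p = 0.0868) and rho 0.817 (exact permutation p = 0.0108), both without adjustment.

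In the 9 non-malignant tissues r was 0.254 (exact permutation p = 0.506, adjusted 0.759) and rho 0.167 (exact permutation p = 0.666, adjusted 0.893). Its sign rested on PT-11, which had no MKI67 read and the lowest PCNA level. Without PT-11 r was −0.184, without PT-10, the other tissue without a read, it was 0.326, and without both it was −0.451 (exact permutation p = 0.312). Whether the relation differs between the diagnoses was not tested. No value was computed over both diagnoses together, which form separate clusters, or within the US-FNA groups, which are too small.

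The relation of both genes to age and to the other genes with an ID in the study was examined in the same family of 18 relations. The closest was that of MKI67 with PMEPA1, a gene that responds to androgen and TGF-beta, with r = 0.770 over the 9 tumours (exact permutation p = 0.0193, adjusted 0.338). For PCNA it was that with the oncogene MYC, with r = 0.630 (exact permutation p = 0.0712, adjusted 0.427), apart from MKI67 itself. This order depended on single tumours. Each r was computed again without the 2 tumours farthest from the median of the other gene or of age. With PCNA it was then 0.481 for MYC, 0.889 for PMEPA1 (from 0.379) and 0.736 for CTNNB1 (from 0.090). It was 0.733 for ACPP (from −0.295), −0.211 for KLK4 (from −0.125) and 0.779 for age (from 0.428). With MKI67 it was 0.884 for PMEPA1. Over the 9 tumours, the remaining relations with PMEPA1, MYC, CTNNB1, KLK4, ACPP and age had an r of at most 0.449 in size (MYC with MKI67), and none passed the adjusted test. Age was also unrelated to a detectable degree in non-malignant tissue, with r = −0.19 for MKI67 (exact permutation p = 0.638) and 0.259 for PCNA (exact permutation p = 0.503).

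PCNA was not among the genes whose pattern over the tumours was closest to that of MKI67. Among 14083 genes with a mean of at least 1 CPM in malignant tissue, 1352 (9.60%) had a higher r with MKI67 than PCNA had, and 890 (6.32%) a higher r with PCNA than MKI67 had. The median r of all genes was 0.165 with MKI67 and 0.152 with PCNA, and 53 and 57 genes exceeded 0.9. The gene closest to MKI67 was ENSCAFG00000011140 (r = 0.979, 2.57 to 41.9 CPM) and the gene closest to PCNA was ENSCAFG00000009380 (r = 0.980, 3.81 to 14.2 CPM), neither of which is paired with a name in the files. These are descriptions over 9 samples that share their library totals. With TMM-scaled CPM the median r of all genes was −0.021 with MKI67 and −0.0050 with PCNA. The 5 closest genes depended on the measure, as 1 of 5 for MKI67 and 2 of 5 for PCNA were the same with Spearman's rho.

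Reproductive status varied only among the malignant samples and gave no detectable difference. MKI67 was 28.9 (PT-8), 47.5 (PT-4) and 519 CPM (PT-1) in the 3 intact dogs, compared with 17.1 (PT-3) to 210 CPM (PT-2) and a median of 117 CPM in the 6 neutered dogs. The intact dogs therefore held both the highest level of all tumours and 2 levels in the lower part of the range. The log2 fold change of neutered against intact dogs was −0.71 (95% confidence interval −2.71 to 1.29, edgeR FDR 0.964), but 1.26 without PT-1. PCNA was 53.0 (PT-8), 79.2 (PT-4) and 184 CPM (PT-1) in intact dogs and 51.1 (PT-5) to 169 CPM (PT-2) in neutered dogs, with a log2 fold change of −0.0046 (−0.89 to 0.89, FDR 0.999).

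Among all genes, edgeR called 0 (0%) in either direction at an FDR under 0.05 between neutered and intact dogs with malignant tissue. At an unadjusted p under 0.05 it called 809 (5.31%). DESeq2 at an FDR under 0.05 called 16 (0.117%) as higher in neutered dogs, and those it called lower were not counted. The log2 ratio of MKI67 to PCNA was −0.31 ± 1.34 (SD, n = 6) in neutered and −0.03 ± 1.32 (SD, n = 3) in intact dogs (exact permutation p = 0.821). Over all 25 samples, diagnosis and reproductive status cannot be told apart, except through the 3 intact dogs with carcinoma described above.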

How the data were processed

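For each sample, the authors deposited raw read counts per Ensembl gene, without normalisation. Per the labels and the study's methods, single reads were trimmed with Trimmomatic 0.32, mapped to CanFam3.1 with TopHat2 and counted with HTSeq at its default settings. HTSeq assigned 58.8% to 70.3% of alignments to no gene, and these were left out, as were the other tallies. Whether some of them lay within genes on the opposite strand cannot be told from the counts. Counts were tested with the quasi-likelihood test of edgeR 4.0.16 (R 4.3.3) after TMM normalisation and a filter on low counts (filterByExpr, 4 groups, counts of at least 10 and totals of at least 15 reads), passed by 15296 genes. Each comparison was a fit of its own groups, with FDRs by Benjamini-Hochberg over all genes tested and a limit of 0.05. SEs were derived from the F statistic. Exact permutation tests were two-sided, on log2(CPM + 0.5), with SciPy 1.17.1 for Wilson intervals. Alternatives included DESeq2 1.42.0, other scalings, no filter, other pseudocounts and each sample left out. The models were tested on simulated data. All pairs of samples within a group differed beyond sampling noise. No batch is given in the labels.

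MKI67, PCNA and the gene lists were chosen with earlier results of these data known. The named genes were MKI67, PCNA and, where a result turned on them, genes with an ID in the study, plus the genes most like each by Pearson's r in malignant tissue. Planned lists of replication, mitosis and cell type genes were not analysed here, as 0 of 32220 IDs matched the table of gene names at hand. 1 further gene of the family of relations is not reported here.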

Additional observations from a re-analysis of the deposited data

Results flagged for a closer look

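Among 15 combinations of group and measure (MKI67, PCNA and their ratio, as CPM or log2 values), 2 held a sample that stood far from the rest of its group by Dixon's test, which chance does in about 1 group in 20. The MKI67 level of PT-1, 519 CPM, was separated from the next malignant tissue (PT-2, 210 CPM) by more than the critical share of the group's range. On the log2 scale PT-1 did not stand apart in this way. Among the non-malignant US-FNA samples, US-32 had a PCNA level of 3.74 as log2(CPM + 0.5), while the next sample, US-13, had 4.81. US-32 also had the lowest MKI67 level of these aspirates, on 2 reads.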

How the results depend on the processing

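The increases of MKI67 and PCNA in malignant tissue kept their direction and their FDR under 0.05 under each alternative, from 5.31 to 6.20 and from 2.30 to 2.40 on the log2 scale, and from 5.25 to 6.02 and from 2.20 to 2.40 when 1 sample was left out. At the stricter FDR of 0.00001, edgeR no longer called the increases in malignant US-FNA, neither against non-malignant tissue (4.74 for MKI67, 2.83 for PCNA) nor against non-malignant US-FNA (4.40 and 2.34), whereas DESeq2 called both genes against tissue and MKI67 against US-FNA (FDR 3.67e-11), and missed PCNA against US-FNA (FDR 1.88e-05). With 1 sample left out, these 4 values ranged from 4.47 to 4.99, 2.10 to 3.30, 4.15 to 4.67 and 1.63 to 2.75, with edgeR FDRs up to 0.0201. Where 1 malignant aspirate remained, it was assumed to vary like the other group. For DESeq2, the share of all genes under an FDR of 0.00001 was not computed.

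Differences that were not called changed sign in places. PCNA in neutered against intact dogs was 0.0056 without the filter, 0.0062 in 1 fit of all groups and 0.063 by the mean of log2(CPM + 0.5). The PCNA interaction was −0.33 when scaled by the library total without KLK2, under which the median log2 fold change of all genes was −0.37. The ratio in non-malignant US-FNA against tissue was 0.43 with 0.1 CPM added. With 1 sample left out, the ranges were −0.18 to 1.06 for PCNA in malignant US-FNA against malignant tissue, −1.22 to 1.26 for MKI67 and −0.33 to 0.41 for PCNA in neutered against intact dogs, and −0.68 to 0.53 for the PCNA interaction. For the ratio they were −0.26 to 0.17 in non-malignant US-FNA against tissue and −0.69 to 0.49 in neutered against intact dogs, and for r in non-malignant tissue −0.18 to 0.42. The cause was not tested. The share of genes closer to MKI67 than PCNA was 6.39% with Spearman's rho. The other 132 values under an alternative setting and 237 values with a sample left out were counted as unchanged. Where a test was run, these kept their direction and side of the limit. Untested were the shares of closer genes, the gaps between the diagnoses and the mean MKI67 level without PT-1. That mean was counted as unchanged because it moved (from 139 to 91.5 CPM) by less than the SD of the tumours (158 CPM).

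MKI67 in non-malignant samples rests on 16 reads or fewer per library. No paired analysis was possible because the labels give the groups no shared replicate numbers.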
